A study of Mus musculus with 10 samples.

Results

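The genes described here are the chemokines Cxcl9, Cxcl10 and Cxcl11 and their shared receptor Cxcr3 in whole mouse lung after lipopolysaccharide (LPS), with or without thymic stromal lymphopoietin (TSLP). They were taken by gene name from the gene count table, and all 4 were found among its 54532 genes. The table covers 10 RNA sequencing libraries of total RNA from lung tissue, and every group is of wild-type genotype. The Vehicle group (3 libraries) received the carrier alone as far as its label says. The LPS group (3 libraries) received LPS, a bacterial cell wall component sensed through TLR4. The LPS+TSLP group (4 libraries) received LPS, with recombinant TSLP given before it according to the series title; TSLP is a cytokine of epithelial barriers. Strain, sex, age, dose, route and time after LPS are not given in the sources used here. There was no group with TSLP alone, so TSLP was compared only on top of LPS. Whether the libraries within a group came from separate animals is not stated. LPS replicate 1 differs from the other LPS libraries in Xist and Y-linked transcripts (values below), so it is not a technical repeat of them. For the rest, p-values measure only the spread between these libraries, which may be technical.

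CXCR3 is a chemokine receptor of activated T cells, in particular CD8 cells and type 1 helper cells, and of natural killer (NK) cells. Its ligands CXCL9, CXCL10 and CXCL11 are classic products of interferon gamma signalling, and CXCL10 is also made in response to type I interferon and to NF-kB signalling. In the lung, macrophages, endothelium and epithelium can all make them, and they draw CXCR3-bearing lymphocytes into infected or inflamed tissue.

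The 3 ligand genes lie side by side on the minus strand of chromosome 5 (GRCm38), within 44139 bases. Cxcl9 (ENSMUSG00000029417) spans chr5:92321347-92328079, Cxcl10 (ENSMUSG00000034855) chr5:92346638-92348889 and Cxcl11 (ENSMUSG00000060183) chr5:92359544-92365485. The receptor gene Cxcr3 (ENSMUSG00000050232) lies on the X chromosome, at chrX:101731535-101734269 on the minus strand. GENCODE marks Cxcl11 in the reference genome as a polymorphic pseudogene and RefSeq as a transcribed pseudogene, so its transcript counts say nothing of a protein here. Of all distinct 50-base stretches of its transcripts, 40.4% also occur in another annotated gene, and 1582 of its 3794 exon bases overlap the processed pseudogene Gm2673 on the other strand. Gm2673 had 0 counts in every library, and the level of Cxcl11 is uncertain to the extent that reads were lost to this overlap. For Cxcl10 the share was 3.59%, with 133 exon bases that overlap Art3 on the other strand, for Cxcl9 0.472% and for Cxcr3 0%.

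Promoter sequences are shown because Cxcl9 and Cxcl10, whose high and low libraries were the same, differ in the motifs found before their start. Each is the 250 bases before the annotated start, 5′ to 3′ on the gene's strand, from RefSeq (GRCm38.p6). Capitals mark matches to the motifs named below.
Cxcl9, chr5:92328080-92328329: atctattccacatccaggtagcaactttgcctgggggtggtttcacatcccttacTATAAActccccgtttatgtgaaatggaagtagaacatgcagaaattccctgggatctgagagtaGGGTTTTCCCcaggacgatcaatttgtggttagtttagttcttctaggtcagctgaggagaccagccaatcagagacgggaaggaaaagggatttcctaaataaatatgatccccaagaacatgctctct
Cxcl10, chr5:92348890-92349139: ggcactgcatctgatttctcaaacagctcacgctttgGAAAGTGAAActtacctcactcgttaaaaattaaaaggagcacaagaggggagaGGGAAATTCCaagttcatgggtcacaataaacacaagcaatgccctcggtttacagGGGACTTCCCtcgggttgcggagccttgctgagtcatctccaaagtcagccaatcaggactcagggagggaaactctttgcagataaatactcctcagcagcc
In Cxcl10 the first capitals (GAAAGTGAAA, first base 213 before the start) match the core of an interferon-stimulated response element. The other capitals (GGGAAATTCC and GGGACTTCCC, first bases 159 and 103 before the start) match a short form of the NF-kB motif. In Cxcl9 there was 1 match to the NF-kB motif on the opposite strand (GGGTTTTCCC, 130 before the start) and a TATAAA at 195 before it. Motifs were searched in windows from 250 bases before to 50 after the start, on both strands apart from TATAAA, which was read on the gene's strand. The interferon-stimulated core was present in 3.44% of the 32851 windows of the table, the NF-kB motif in 20.7%, TATAAA in 8.32% and the gamma-activated motif TTCNNNGAA in 8.30%. No match to TTCNNNGAA was in the windows of Cxcl9, Cxcl10 or Cxcr3, and the Cxcr3 window had no match to any of the motifs. These are letter matches only, and 3 of the 4 genes were matched in the table.

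Total counts per library ran from 16175172 to 18374461. Levels are CPM, the counts scaled to a common library total after TMM normalization, and 17139 genes passed the filter on low counts and were tested, all 4 genes among them. Mitochondrial genes took 1.11% to 1.27% of counts in Vehicle, 1.20% to 2.58% in LPS, and 13.1%, 6.50%, 5.35% and 1.996% in LPS+TSLP replicates 1 to 4. LPS replicate 1 had 3388 counts of Xist, against at most 8 in any other library, and 0 of the Y-linked Ddx3y. Vehicle replicates 1 to 3 had 141, 113 and 209 counts of Ddx3y. LPS replicates 2 and 3 had 1241 and 1613, and the LPS+TSLP libraries 934 to 1647. Vehicle thus differed from the other groups in Ddx3y along with treatment, and the cause was not tested. Lung epithelium markers such as the surfactant genes were abundant in every library, with summed levels of 16127 to 42730 CPM, and markers of muscle, fat, thyroid, thymus, liver and squamous epithelium together held 2.99 to 35.8 CPM.

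The ligands were higher in every LPS library than in any Vehicle library, and Cxcl9 passed the test across all genes. Cxcl9, which draws T cells and is the most interferon gamma-dependent of the ligands, had 6.46, 30.2 and 68.1 CPM across Vehicle replicates 1 to 3. The LPS replicates 1 to 3 had 297, 326 and 299.98 CPM. The LPS libraries lay close together, whereas the Vehicle libraries were spread over a 10.5-fold range. Cxcl10, an early chemokine of many cell types, had 5.90, 105 and 149 CPM in Vehicle and 735, 527 and 583 CPM in LPS, again with no overlap. Cxcl11, the ligand that binds CXCR3 most tightly, was scarce: it had 0, 1.33 and 2.35 CPM in Vehicle and 12.1, 10.5 and 11.1 CPM in LPS. The 0 in Vehicle replicate 1 allows up to 0.169 CPM (3 counts), for counting error only. Vehicle replicate 1 was thus the lowest library for each ligand.

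**Figure D1:**
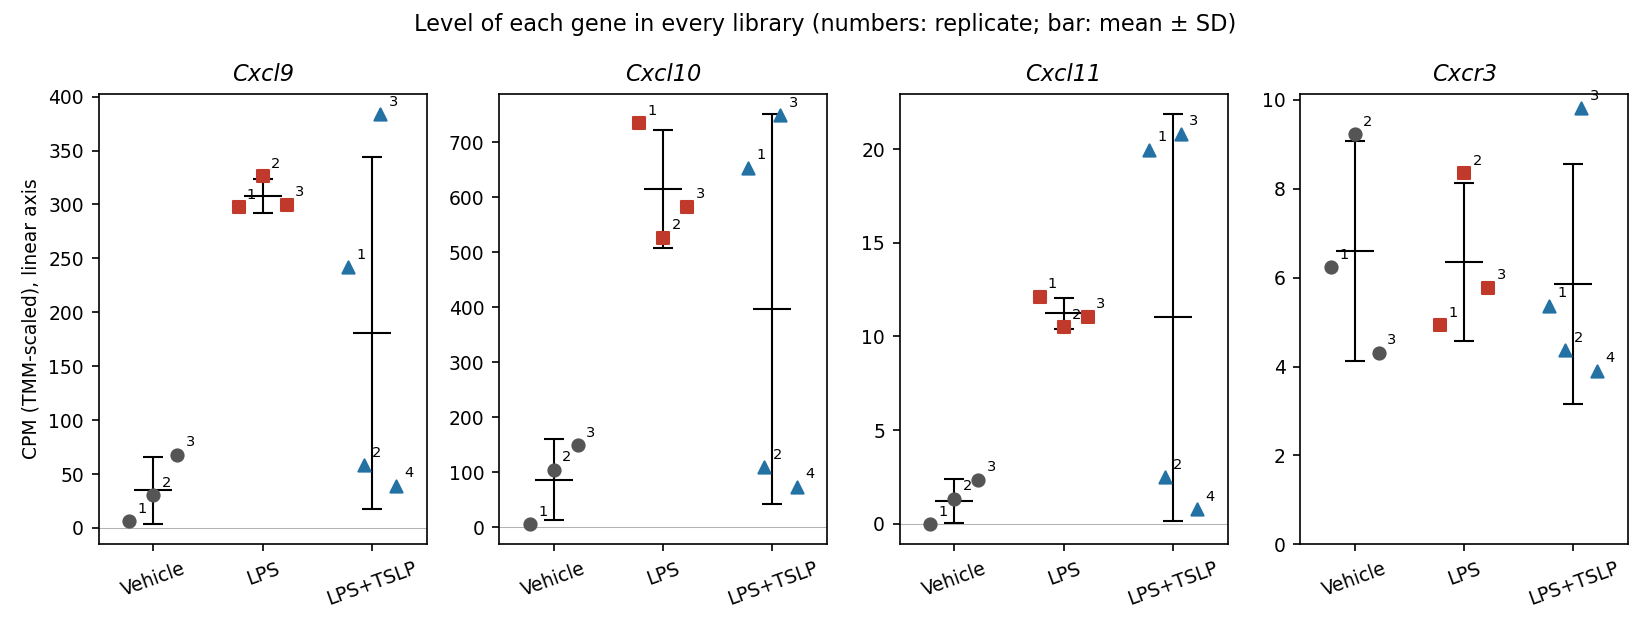
Levels of Cxcl9, Cxcl10, Cxcl11 and Cxcr3 in each of the 10 libraries, in TMM-scaled CPM on linear axes that include 0, by group (points: libraries, numbered by replicate; bars: mean ± SD). The 3 LPS libraries of each ligand sit close together above the Vehicle libraries, the LPS+TSLP libraries split between high (replicates 1 and 3) and low (replicates 2 and 4), and Cxcr3 stays between 3.91 and 9.81 CPM throughout.

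The group means of Cxcl9 were 34.9 ± 31.1 CPM in Vehicle (SD, n = 3) and 308 ± 16.01 CPM in LPS (SD, n = 3). Its log2 fold change was 3.14 (SE 0.91, 95% interval 1.15 to 5.12, edgeR quasi-likelihood adjusted p = 0.0284), an 8.81-fold rise. For Cxcl10 the means were 86.5 ± 73.2 and 615 ± 108 CPM, and the log2 fold change was 2.83 (SE 1.04, 0.54 to 5.12, adjusted p = 0.0677). For Cxcl11 they were 1.23 ± 1.18 and 11.2 ± 0.824 CPM, with a log2 fold change of 3.18 (SE 1.19, 0.58 to 5.79, adjusted p = 0.0702). So 1 of the 4 genes was called as higher, where the call covered 14.2% of all genes tested. At an unadjusted p under 0.05 there were 3 of 4, against 21% of all genes higher, and 3 of 4 lay above Vehicle without overlap, against 24.7% of all genes.

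These calls moved with single libraries. Cxcl9 lost its call without Vehicle replicate 1 (log2 fold change 2.65, edgeR adjusted p = 0.0833), Vehicle replicate 2 (3.04, 0.0993), LPS replicate 1 (3.17, 0.0666) or LPS replicate 2 (3.10, 0.0561), and stood at 4.08 (0.0233) without Vehicle replicate 3. Over these and the other alternatives its adjusted p ran from 0.00708 to 0.137. With LPS replicate 1 left out, Cxcl10 and Cxcl11 were at 2.68 and 3.12, also not called. Cxcl10 was called by the DESeq2 Wald test (2.84, adjusted p = 0.0389) and by limma-voom (3.75, adjusted p = 0.0424). Cxcl11 was called in a fit of Vehicle and LPS alone (3.21, edgeR adjusted p = 0.0261) and without LPS+TSLP replicate 4 (3.20, 0.0395).

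The spread of the ligands within a group was wide in Vehicle and LPS+TSLP and narrow in LPS. The SD of log2 CPM of Cxcl9, Cxcl10 and Cxcl11 was 1.71, 2.54 and 2.37 among the Vehicle libraries, larger than in 99.0%, 99.8% and 99.7% of the genes tested, whose median was 0.24. Among the LPS libraries it was 0.07, 0.25 and 0.10, at or below the median gene's 0.36. In LPS+TSLP it was 1.58, 1.73 and 2.25, larger than in 97.5%, 98.3% and 99.5% of genes, whose median was 0.41. The difference in spread between groups was not tested.

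After LPS+TSLP the ligands stood at separate levels within the group. Cxcl9 had 242, 58.5, 384 and 39.3 CPM in LPS+TSLP replicates 1 to 4, where LPS alone gave 297 to 326 CPM. Cxcl10 had 654, 109, 750 and 73.6 CPM, and Cxcl11 had 19.96, 2.47, 20.8 and 0.793 CPM. Replicates 1 and 3 lay within or above the LPS range, except for Cxcl9 in replicate 1, which lay below it and above all Vehicle libraries. Replicates 2 and 4 lay within the Vehicle range, except for Cxcl11 in replicate 2, which lay just above it. The highest library of the 10 was LPS+TSLP replicate 3 for each of the ligands. The same 5 libraries, the 3 of LPS with LPS+TSLP replicates 1 and 3, were the highest 5 for each ligand.

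Against LPS alone, none of the 4 genes passed the test in LPS+TSLP. The log2 fold change of Cxcl9 was −0.77 (SE 0.77, 95% interval −2.46 to 0.93, edgeR adjusted p = 0.826), that of Cxcl10 −0.63 (SE 0.91, −2.62 to 1.35, adjusted p = 0.89) and that of Cxcl11 −0.03 (SE 0.99, −2.20 to 2.14, adjusted p = 0.997). The intervals are wide enough to include both a fall and a rise. No gene at all was called in this comparison (0% of genes tested, either direction). At an unadjusted p under 0.05 there were 0 of the 4 genes and 1388 of all genes (8.1%). The DESeq2 Wald test called 35 genes and limma-voom 0, none of the 4 in either. With LPS+TSLP replicate 1, the library with most mitochondrial counts, left out, the log2 fold changes were −0.93 for Cxcl9, −0.98 for Cxcl10 and −0.47 for Cxcl11, and none was called. Cxcl9 and Cxcl10 were at −1.44 and −1.14 without LPS+TSLP replicate 3, at −0.47 and −0.32 without replicate 2 and at −0.41 and −0.26 without replicate 4, none of them called. The sign for Cxcl11 turned in 7 of 23 alternatives (−1.04 to 0.39).

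**Figure D2:**
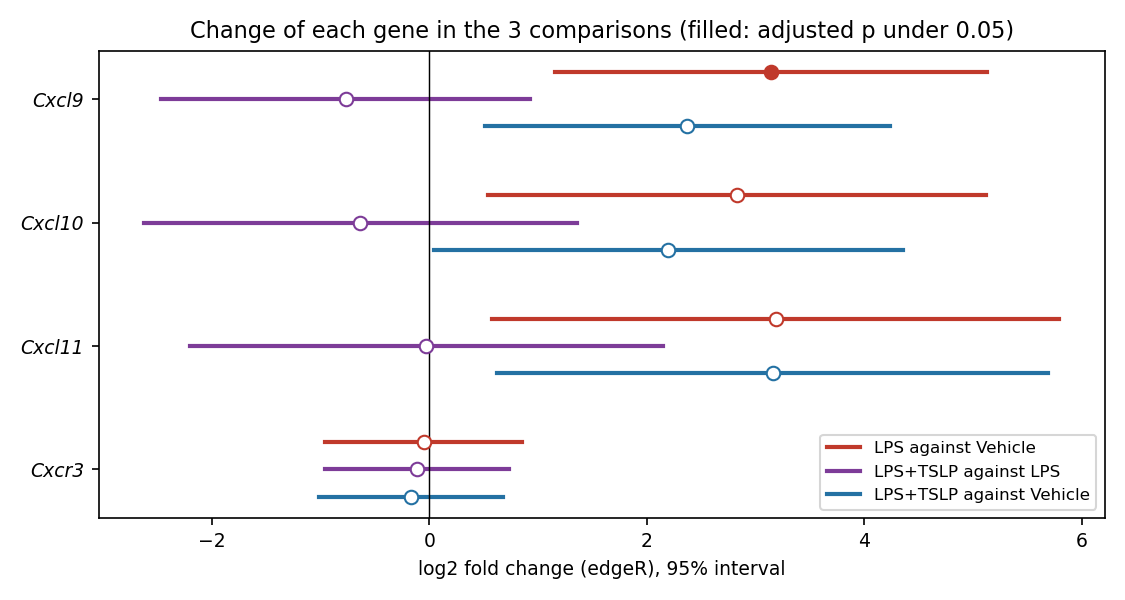
Log2 fold changes of the 4 genes in the 3 comparisons, as points with 95% intervals from the edgeR fit, filled where the adjusted p is under 0.05, with a line at no change. Cxcl9, Cxcl10 and Cxcl11 lie between 2.83 and 3.18 for LPS against Vehicle with intervals above 0 and only Cxcl9 filled, their intervals include 0 for LPS+TSLP against LPS, and Cxcr3 lies near 0 in all 3.

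Against Vehicle, the LPS+TSLP means were 181 ± 163 CPM for Cxcl9, 396 ± 355 CPM for Cxcl10 and 11.01 ± 10.9 CPM for Cxcl11 (SD, n = 4). This comparison shares its Vehicle libraries with the first and its LPS+TSLP libraries with the second. The log2 fold changes were 2.37 (SE 0.85, edgeR adjusted p = 0.0809), 2.20 (SE 0.98, adjusted p = 0.145) and 3.15 (SE 1.15, adjusted p = 0.0859). None was called, where 8.82% of all genes were called as higher and 5.35% as lower, and the groups overlapped for each ligand. At an unadjusted p under 0.05 there were 3 of 4, against 18% of all genes higher. Without LPS+TSLP replicate 4, Cxcl9 (2.75, adjusted p = 0.0368) and Cxcl11 (3.59, adjusted p = 0.0336) were called, and the DESeq2 Wald test called Cxcl9 (2.40, adjusted p = 0.0415). With LPS+TSLP replicate 1 left out the log2 fold changes were 2.22 for Cxcl9, 1.87 for Cxcl10 and 2.73 for Cxcl11, none of them called.

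By group means per kilobase of exon, Cxcl10 was the most abundant of the ligands in each group and Cxcl11 the least. Mean levels in Vehicle were 38.4 CPM per kilobase for Cxcl10, 11.6 for Cxcl9 and 0.324 for Cxcl11. In LPS they were 273, 102 and 2.96, and in LPS+TSLP 176, 60.0 and 2.90 CPM per kilobase. Cxcr3 stood at 3.81, 3.67 and 3.39 CPM per kilobase in the groups in that order. It was above Cxcl11 on the full exon length, but after LPS and LPS+TSLP it was below Cxcl11 when exon bases shared with Gm2673 were left out of the length (5.08 and 4.98 CPM per kilobase for Cxcl11).

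Ratios within a library do not depend on scaling, and they show whether the ligands moved unequally. The log2 ratio of Cxcl9 to Cxcl10 counts was 0.13, −1.79 and −1.13 for Vehicle (replicates 1 to 3), −1.31, −0.69 and −0.96 in LPS, and −1.44, −0.89, −0.97 and −0.91 in LPS+TSLP. The group means were −0.93 ± 0.98 (n = 3), −0.99 ± 0.31 (n = 3) and −1.05 ± 0.26 (n = 4), and they differed by at most 0.12 (exact permutation p = 0.743 to 1, two-sided). The log2 ratio of Cxcl11 to Cxcl10 was −6.65 ± 0.94 in Vehicle, −5.76 ± 0.14 in LPS and −5.53 ± 0.66 in LPS+TSLP. LPS lay above Vehicle by 0.89 (exact permutation p = 0.1, the smallest that 3 against 3 libraries allow; adjusted p = 0.514 over 9 ligand ratio tests), and by 0.36 without Vehicle replicate 1, where Cxcl11 had no count. LPS+TSLP lay above Vehicle by 1.12 (exact permutation p = 0.114, adjusted p = 0.514), and by 0.59 without that library. The log2 ratio of Cxcl9 to Cxcl11 was 5.72 ± 1.85, 4.77 ± 0.17 and 4.48 ± 0.83, with exact permutation p from 0.286 to 0.8. No ligand ratio differed between groups past the adjusted threshold, but with so few libraries the tests could hardly pass it. The smallest possible exact permutation p was 0.1 for LPS against Vehicle and 0.0286 for the other comparisons, before adjustment. The tests therefore cannot show that the ratios were equal. The Vehicle values of the ratios with Cxcl11 rest on 0, 25 and 43 counts.

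**Figure D3:**
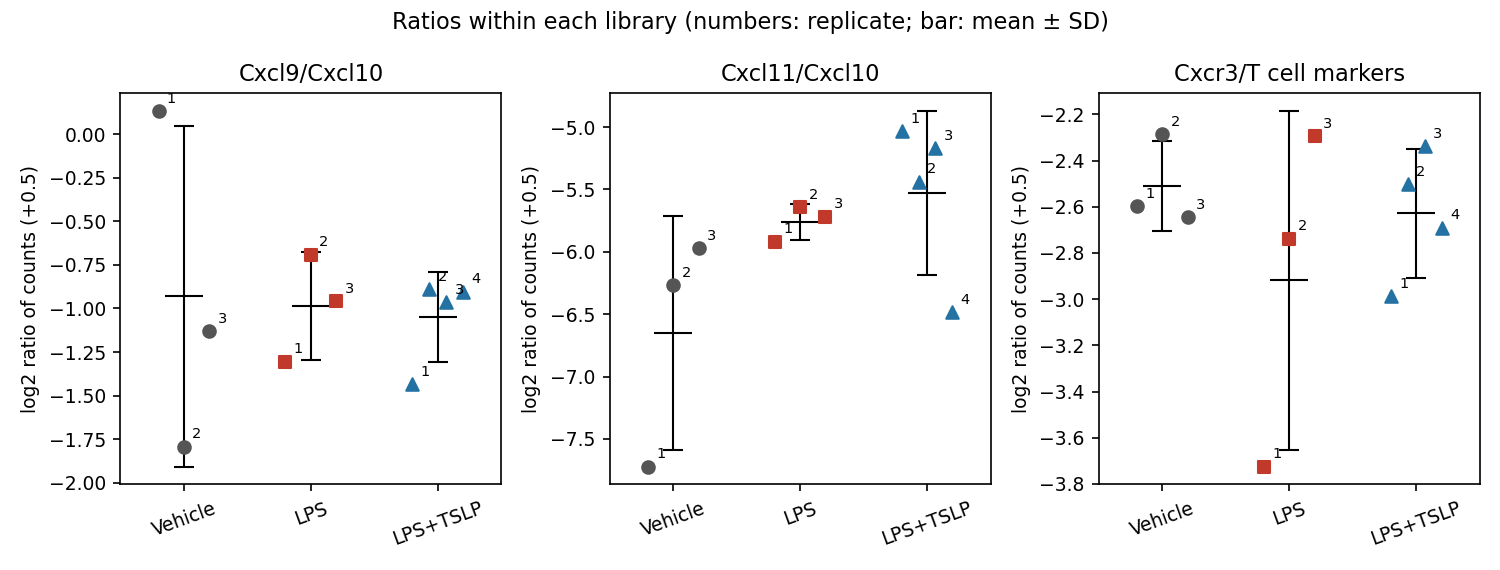
Log2 ratios of counts (0.5 added to each) within each library, by group, for Cxcl9 to Cxcl10, Cxcl11 to Cxcl10 and Cxcr3 to T cell receptor complex genes (points: libraries, numbered by replicate; bars: mean ± SD). The LPS libraries lie close together in the ratio of Cxcl11 to Cxcl10, Vehicle replicate 1 is highest for Cxcl9 to Cxcl10 and lowest for Cxcl11 to Cxcl10, and LPS replicate 1 is lowest for Cxcr3 to T cell markers.

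The receptor gene passed the test in none of the 3 comparisons. Cxcr3 had 6.23, 9.23 and 4.31 CPM in Vehicle, 4.94, 8.36 and 5.78 CPM in LPS, and 5.37, 4.37, 9.81 and 3.91 CPM in LPS+TSLP. All groups overlapped. The log2 fold change was −0.05 for LPS against Vehicle (SE 0.41, 95% interval −0.96 to 0.85, edgeR adjusted p = 0.938), −0.11 for LPS+TSLP against LPS (SE 0.39, −0.96 to 0.73, adjusted p = 0.959) and −0.17 for LPS+TSLP against Vehicle (SE 0.39, −1.01 to 0.68, adjusted p = 0.793). Its sign turned under some alternatives in each comparison (−0.31 to 0.26, −0.48 to 0.13 and −0.53 to 0.15). Counts per library were 64 to 180. The gene is X-linked, and without LPS replicate 1, the library with Xist, the log2 fold change of LPS against Vehicle was 0.10.

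Cxcr3 was set against T cell transcripts, which do not single out the activated T cells and NK cells that carry it. The summed counts of the T cell receptor complex genes Cd3d, Cd3e, Cd3g and Cd247 were 674, 845 and 497 in Vehicle, 1077, 990 and 512 in LPS, and 669, 433, 911 and 416 in LPS+TSLP. Cxcr3 counts per such count were 0.165, 0.205 and 0.160 in Vehicle, 0.0757, 0.150 and 0.204 in LPS, and 0.126, 0.176, 0.198 and 0.155 in LPS+TSLP. LPS replicate 1 had the most T cell receptor complex counts and the lowest ratio. The mean log2 ratios were −2.51 ± 0.20, −2.92 ± 0.73 and −2.63 ± 0.28. LPS was below Vehicle by a difference of −0.41 (exact permutation p = 0.4), LPS+TSLP was above LPS by 0.29 (p = 0.543, exact) and below Vehicle by −0.12 (p = 0.543, exact), with an adjusted p = 0.543 for each of the 3 exact tests. Without LPS replicate 1 the difference of LPS from Vehicle was −0.0068 and that of LPS+TSLP from LPS −0.11. In bulk tissue, fewer cells of a type and less RNA per cell cannot be told apart.

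Marker lists for the cells that make or follow these ligands were read by library. None of 16 T cell markers was called in LPS against Vehicle, where 14.2% of all genes were higher and 10.7% lower. Of the 16, 10 had a positive and 6 a negative log2 fold change (median 0.25, where the median over all genes was 0.01). In LPS+TSLP against LPS, where 0% of all genes were called, 0 of the 16 markers were (median −0.34, all genes 0.02). Their summed level was 205, 255 and 154 CPM in Vehicle, 275, 264 and 160 CPM in LPS, and 255, 131, 273 and 136 CPM in LPS+TSLP, so LPS+TSLP replicates 1 and 3 were the higher libraries here too. Of 12 NK cell markers 3 rose after LPS and 9 did not pass (median 0.69), where 14.2% of all genes were higher. They were Ccl5, a chemokine made by NK and T cells (2.02, SE 0.47, edgeR adjusted p = 0.0127), and the NK receptors Klra8 (2.03, SE 0.64, adjusted p = 0.0395) and Klre1 (1.79, SE 0.59, adjusted p = 0.0454). Of the 12, 9 had a positive and 3 a negative log2 fold change, and the NK receptor Ncr1 was at 0.22 (SE 0.42, edgeR adjusted p = 0.735). The count of NK cell markers that rose was 0 without Vehicle replicate 1 and 1 without Vehicle replicate 3, LPS replicate 1 or LPS replicate 2. Their summed level was 113 to 241 CPM in Vehicle, 256 to 399 CPM in LPS and 213, 171, 327 and 92.3 CPM in LPS+TSLP. No T or NK cell marker was at 0 in all libraries. The part of these cells in the ligand levels was not tested.

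Myeloid cell lists were read in the same way for LPS against Vehicle. Of 12 monocyte and macrophage markers 3 rose, the LPS co-receptor Cd14 (2.22, SE 0.56), the scavenger receptor Marco (1.72, SE 0.57) and the monocyte chemokine receptor Ccr2 (1.58, SE 0.39), and 1 fell, Siglecf of alveolar macrophages (−2.53, SE 0.59). Over all genes, 14.2% were higher and 10.7% lower, so the count that fell and that of neutrophil markers (1 of 10 rose, Ly6g) were near the share over all genes. The count of monocyte and macrophage markers that rose was 1 when Vehicle replicate 1 or LPS replicate 1 was omitted and 0 when Vehicle replicate 2 was, and 0 fell once Vehicle replicate 1 was omitted. In LPS+TSLP replicate 1 their summed level was 2689 CPM, where the other 9 libraries had 5118 to 7866 CPM. Neutrophil markers summed to 416 to 1187 CPM in Vehicle, 1599 to 2120 CPM in LPS and 125, 983, 1105 and 777 CPM in LPS+TSLP. LPS+TSLP replicate 1, with the lowest summed levels of monocyte and macrophage markers and of neutrophil markers, was among the libraries with most ligand transcript. Such sums weigh abundant genes most. By mean log2 CPM, the monocyte and macrophage list was at 5.91 in LPS+TSLP replicate 1 and 5.94 in Vehicle replicate 1. Of the 4 markers named here, Ccr2 was highest of its group in LPS+TSLP replicate 1, at 138 CPM. Cd14, Marco and Siglecf were lowest of the group there, at 139, 11.1 and 0.768 CPM. The count of neutrophil markers that rose was 0 without any 1 of Vehicle replicates 1 to 3 or LPS replicate 1, and 5 without LPS+TSLP replicate 1.

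Markers of dendritic cells, endothelium and epithelium, other possible makers of the ligands, were read beside the same shares of all genes. Of 8 endothelial markers, 3 had a positive and 5 a negative log2 fold change after LPS (median −0.55). Of the 8, 4 fell and 0 rose, where 10.7% of all genes were lower. They were the growth factor receptor Kdr (−1.42, SE 0.33, edgeR adjusted p = 0.0124), the angiopoietin receptor Tek (−1.08, SE 0.27, adjusted p = 0.017), the junction cadherin Cdh5 (−0.92, SE 0.30, adjusted p = 0.0428) and the receptor kinase Tie1 (−0.90, SE 0.23, adjusted p = 0.0176). The summed level was 5372, 5433 and 4178 CPM in Vehicle, 3955, 3961 and 3570 CPM in LPS, and 3273, 4173, 4035 and 4137 CPM in LPS+TSLP, so the LPS libraries lay below all Vehicle libraries. The count of endothelial markers that fell was 1 without Vehicle replicate 1 or 2 and 2 with the GC trend removed. Of 10 dendritic cell markers 2 rose, Clec9a of type 1 conventional dendritic cells (1.65, SE 0.25, adjusted p = 0.00273) and the transcription factor Batf3 (1.72, SE 0.39, adjusted p = 0.011), and 1 fell, the lectin gene Cd209a (−2.80, SE 0.67, adjusted p = 0.0139). Both counts were near the shares over all genes, 14.2% higher and 10.7% lower. Of the 10, 5 had a positive and 5 a negative log2 fold change (median 0.005). Dendritic cell markers summed to 262 to 320 CPM in Vehicle and 301 to 334 CPM in LPS. They summed to 365, 299.7, 361 and 279 CPM in LPS+TSLP replicates 1 to 4, with overlapping groups. LPS+TSLP replicates 1 and 3 were thus the highest libraries of the 10 for this sum. The count of dendritic cell markers that rose was 1 without Vehicle replicate 1 or 2, and the count that fell was 0 without Vehicle replicate 1 or LPS replicate 1 and 2 without LPS+TSLP replicate 1. Of 11 lung epithelium markers 0 rose and 0 fell (median −0.63), and without LPS+TSLP replicate 1 4 fell and 1 rose. The part of these cells in the ligand levels was not tested.

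Ifng, the gene of interferon gamma, and some of its pathway genes rose after LPS. Ifng had 0.337, 1.07 and 0.874 CPM in Vehicle and 12.4, 6.33 and 4.50 CPM in LPS, and rose by 3.33 on the log2 scale (SE 1.01, edgeR adjusted p = 0.0336). In LPS+TSLP it had 9.60, 1.21, 9.27 and 0.427 CPM, the same high and low libraries as for the ligands, and a log2 fold change of −0.60 against LPS (SE 0.83, adjusted p = 0.885), which was −0.03 without LPS replicate 1 and ran to −1.08 without LPS+TSLP replicate 1. Of the 20 genes of the interferon gamma induction axis 6 rose, 0 fell and 14 did not pass (median 0.81), where 14.2% of all genes were higher and 10.7% lower. Others that rose were the receptor kinase Jak2 (1.10, SE 0.33), the transcription factor Irf1 (1.36, SE 0.39), and the cytokine subunits Il12a of IL-12 (2.60, SE 0.52) and Ebi3 of IL-27 (2.34, SE 0.48). Irf1 had 159 to 296 CPM in Vehicle, 475 to 773 CPM in LPS, and 534, 253, 494 and 211 CPM in LPS+TSLP, with replicates 1 and 3 again the higher libraries. Il12a was ordered otherwise, at 2.81, 5.18, 10.1 and 4.76 CPM in LPS+TSLP, and so was Ebi3 at 3.52, 10.1, 12.5 and 8.97 CPM. Tbx21, the type 1 lineage factor that drives Cxcr3, had a log2 fold change of −0.17 after LPS (SE 0.50, adjusted p = 0.829), which turned to 0.11 after removal of the GC trend. Against LPS, 0 of the 20 genes passed in LPS+TSLP (median −0.46).

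These calls too rested on few libraries. The count of the interferon gamma induction axis that rose after LPS was 2 without Vehicle replicate 1 or 2 and 3 without LPS replicate 1. Ifng was lost without any 1 of Vehicle replicates 1 to 3 or LPS replicates 1 and 2 (log2 fold change 2.82 to 3.66), with no filter on low counts (3.34), by limma-voom (3.30) and with the GC trend removed (3.003). Omitting Vehicle replicate 1 or Vehicle replicate 2 ended the calls of Irf1 and Jak2. So did omitting LPS replicate 1 for Irf1 and LPS replicate 3 for Jak2, with values of 1.13 to 1.39 for Irf1 and 0.73 to 1.04 for Jak2. Jak2 also lost its call on library size alone (1.03) and with the GC trend removed (0.84). Il12a and Ebi3 kept theirs in each of the alternatives run.

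Target genes of interferon gamma were read next. Of 24 interferon gamma response genes 13 rose, 0 fell and 11 did not pass (median 1.55), where 14.2% of all genes were higher and 10.7% lower. Gbp7, a guanylate-binding GTPase active against intracellular microbes, had 12.5 to 27.9 CPM in Vehicle and 249 to 385 CPM in LPS (log2 fold change 4.09, SE 0.46, edgeR adjusted p = 0.00163). The defence GTPase Iigp1 rose by 3.58 (SE 0.74), the checkpoint ligand Cd274 by 2.30 (SE 0.52) and Gbp3 by 2.002 (SE 0.48). Iigp1 was at 4.80 without Vehicle replicate 3, and Gbp3 lost its call without Vehicle replicate 1 (1.67). The count of interferon gamma response genes was 5 with Vehicle replicate 1 omitted, 4 with Vehicle replicate 2 omitted, 8 with LPS replicate 1 omitted, and 7 with no filter on low counts. Their summed level was 1267, 2548 and 3593 CPM in Vehicle, 7870, 6542 and 7580 CPM in LPS, and 5577, 2393, 6391 and 3119 CPM in LPS+TSLP. Within LPS+TSLP they did not all share the order of the ligands: Gbp3 had 253, 101, 305 and 102 CPM, but Gbp7 had 88.1, 113, 248 and 155 CPM and Iigp1 205, 232, 670 and 341 CPM. Against LPS, 0 of the 24 interferon gamma response genes passed in LPS+TSLP and 23 had a negative log2 fold change (median −0.73). Against Vehicle 2 of the 24 rose (median 0.87), near the 8.82% of all genes that were higher in that comparison. The count was 1 without Vehicle replicate 1 or 2, LPS replicate 2 or LPS+TSLP replicate 2 or 3, 6 without Vehicle replicate 3 and 4 without LPS+TSLP replicate 4.

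**Figure D4:**
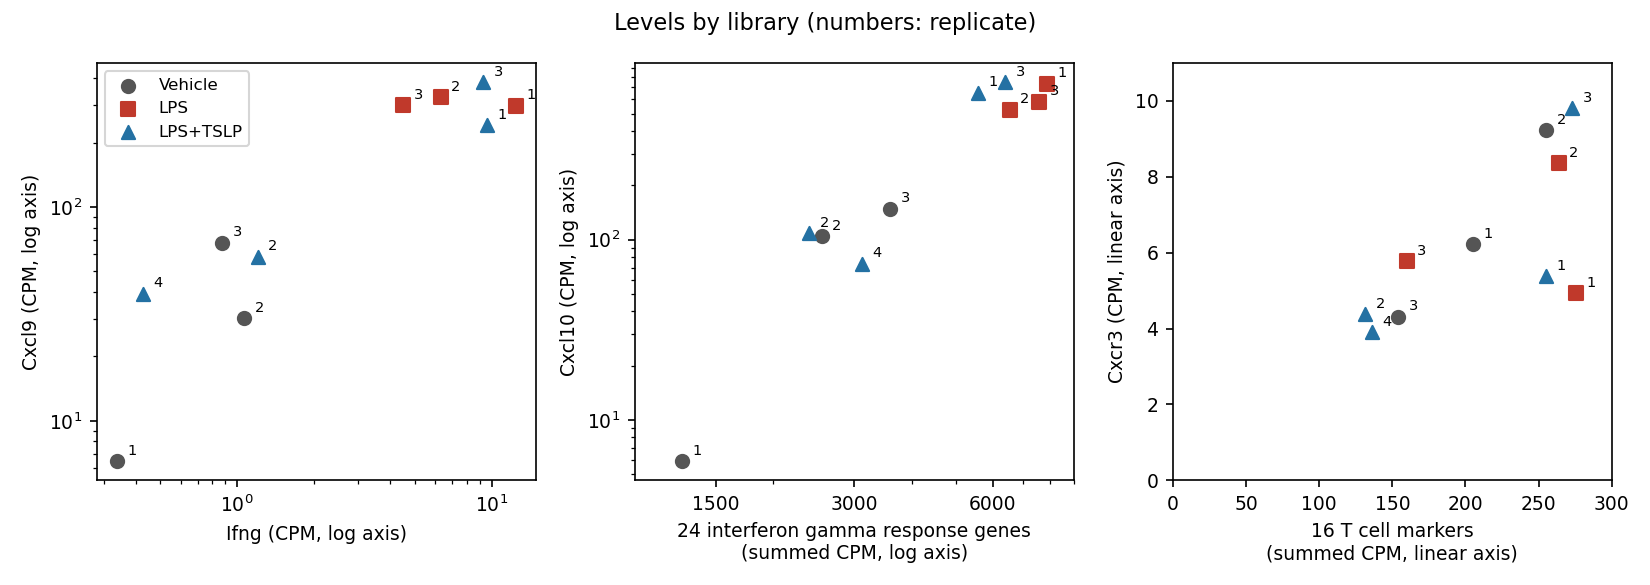
Each point is a library, numbered by replicate and marked by group: Cxcl9 against Ifng (CPM, log axes), Cxcl10 against the summed level of 24 interferon gamma response genes (CPM, log axes), and Cxcr3 against the summed level of 16 T cell markers (CPM, linear axes from 0). In the plots of Cxcl9 and Cxcl10 the LPS libraries and LPS+TSLP replicates 1 and 3 lie at the upper right and the other 5 libraries at the lower left, and in the plot of Cxcr3 the groups are mixed.

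Of 13 tested genes of the type I interferon induction axis, the other route to Cxcl10, 4 rose after LPS and 9 did not pass (median 0.44), where 14.2% of all genes were higher. They were the kinases Tbk1 (1.14, SE 0.22) and Ikbke (2.85, SE 0.59), the RNA sensor Tlr3 (1.44, SE 0.25) and the transcription factor Irf7 (2.13, SE 0.62). After removal of the GC trend Tlr3 was at 0.48 (edgeR adjusted p = 0.14), and Irf7 lost its call when Vehicle replicate 1, Vehicle replicate 3, LPS replicate 1 or LPS replicate 2 was omitted (1.72 to 2.26). The ligand genes of this axis were near absent: Ifna4 had no count in any library, and Ifnb1 was at 0 in all Vehicle libraries and reached at most 0.576 CPM (LPS+TSLP replicate 1), so neither was tested. Within LPS+TSLP, Irf7 had 695, 272, 612 and 153 CPM in replicates 1 to 4, the same high and low libraries as for the ligands. The summed level of this list was 1510, 1182, 1711 and 915 CPM, with replicates 1 and 3 also the higher libraries. Tbk1 and Ikbke were ordered otherwise, with their lowest values in replicate 1 (57.4 and 34.2 CPM). So was Tlr3, at 29.1, 26.5, 37.0 and 34.5 CPM in replicates 1 to 4. In LPS+TSLP against LPS, 0 of the 13 passed (median −0.18).

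Of 12 genes that bind, cut or signal for these chemokines, 2 rose and 2 fell after LPS (median 0.13), near the 14.2% of all genes that were higher and the 10.7% that were lower. The beta-arrestins, which silence and route chemokine receptors, moved in opposite directions. Arrb2 rose by 1.14 (SE 0.24, edgeR adjusted p = 0.00865), and Arrb1 fell by 1.27 on the log2 scale (SE 0.26, adjusted p = 0.00753), from 408 to 532 CPM in Vehicle to 178 to 216 CPM in LPS. Pf4, a platelet chemokine that also binds CXCR3, rose by 1.27 (SE 0.28, adjusted p = 0.0103), and lost this call with the length trend removed (0.74, adjusted p = 0.0778). Dpp4, the peptidase that trims and inactivates the ligands, fell by 0.86 on the log2 scale (SE 0.28, adjusted p = 0.0459) with overlapping groups, and lost this call without Vehicle replicate 1 or 2, LPS replicate 1 or 3 or LPS+TSLP replicate 2, 3 or 4 (−0.86 to −0.68). Without any 1 of these libraries the count of CXCR3 ligand handling and signalling genes that fell was 1. Ackr1, the scavenging receptor of venules, had 0.618, 3.42 and 3.33 CPM in Vehicle, 6.03, 2.43 and 8.05 CPM in LPS, and 1.09, 0.921, 2.34 and 1.95 CPM in LPS+TSLP. LPS replicate 2 and LPS+TSLP replicate 3 were nearly tied for Ackr1, with 43 counts each. Its log2 fold change in LPS+TSLP against LPS was −1.80 (SE 0.59, edgeR adjusted p = 0.589). Ackr3, which takes up CXCL11, was at 0.78 after LPS (SE 0.37, adjusted p = 0.143) and at −0.99 in LPS+TSLP against LPS (SE 0.35, adjusted p = 0.589).

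The other CXC chemokines were read for comparison. Of 16 other CXC chemokines and receptors 4 rose and 2 fell after LPS (median 0.38), where 14.2% of all genes were higher and 10.7% lower. The neutrophil attractants Cxcl2 and Cxcl3 rose by 5.19 (SE 1.40) and 4.38 (SE 1.07), Cxcl16, the ligand of CXCR6, rose by 1.31 (SE 0.32), and Cxcl12, a homeostatic chemokine, fell by 1.17 on the log2 scale (SE 0.33). Cxcl2 and Cxcl3 were at 7.98 and 5.55 without Vehicle replicate 3, and lost their calls without Vehicle replicate 2 (4.74 and 4.28), as did Cxcl2 without LPS replicate 1 (4.93). Cxcl16 lost its call without Vehicle replicate 1 or 2 or LPS replicate 1 (1.08 to 1.24), and Cxcl12 when Vehicle replicate 1, Vehicle replicate 2, LPS replicate 1 or LPS replicate 2 was omitted (−1.20 to −0.98) and with the GC trend removed (−0.99). In LPS+TSLP, Cxcl2 had 25.5, 142, 500 and 199 CPM and Cxcl3 10.7, 140, 138 and 70.7 CPM. Replicate 1 was thus the lowest library of the group for these neutrophil attractants and among the highest for Cxcl9, Cxcl10 and Cxcl11. The count of other CXC chemokines and receptors that rose was 0 without Vehicle replicate 2 and 1 without LPS replicate 1 or with no filter on low counts, and the count that fell was 0 when Vehicle replicate 1, Vehicle replicate 2, LPS replicate 1 or LPS replicate 2 was omitted, and 1 without LPS replicate 3 or LPS+TSLP replicate 3. In LPS+TSLP against LPS 0 of the 16 passed (median −0.53).

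The protein-coding genes whose log2 CPM was most like each ligand over the 10 libraries were chosen among 13814 genes by Pearson's r, as a description with no test. For Cxcl9 they were Gbp3 (r = 0.991), Ifi211 (0.988), Ms4a6d (0.985), Trim30d (0.976) and Nuak2 (0.976). For Cxcl10 they were Myd88 (0.989), Ifi211 (0.983), Zbp1 (0.982), Ms4a6d (0.977) and Ifi204 (0.976), and for Cxcl11 Trim30d (0.980), Ms4a6d (0.975), Myd88 (0.974), Ifi207 (0.972) and Irf7 (0.970). For Cxcr3 they were Cd8b1 (0.944) and Cd8a (0.863), the chains of the CD8 co-receptor, with Fcho1 (0.900), Fcrl1 (0.897) and the NK receptor Ncr1 (0.874). These libraries share the groups, so the value mixes differences between and within groups.

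Neighbours of the ligand cluster were read to see whether the region as a whole moved. Of 9 other protein-coding genes within 200 kb, 8 were tested and 1 was called in LPS against Vehicle, as higher, near the 14.2% of all genes that were higher. This was Uso1, a vesicle tethering factor (chr5:92137938-92202798, log2 fold change 0.70, SE 0.22, edgeR adjusted p = 0.0388), which lost its call without Vehicle replicate 1 or 2, LPS replicate 2 or 3, or LPS+TSLP replicate 2 or 3 (0.53 to 0.70). Art3, an ADP-ribosyltransferase gene whose body spans Cxcl10 and Cxcl11 on the other strand, stood at −0.03 on the log2 scale (SE 0.54, adjusted p = 0.974). Of the genes of this region that were tested, Cxcl9 and Uso1 were the ones called in LPS against Vehicle. Among the neighbours, Uso1, Sdad1 (0.57, edgeR adjusted p = 0.132), Nup54 (0.52, adjusted p = 0.169) and the untested U90926 lay above Vehicle without overlap, as did 24.7% of all genes. Naaa (−0.34, adjusted p = 0.47) lay below Vehicle without overlap, and the other neighbours overlapped.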

How the data were processed

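Per the labels' protocols, Trizol was used to extract the lung RNA and standard Illumina steps to make the libraries. The authors deposited 1 table of raw read counts per gene for the 10 libraries. Per the submitters' processing notes, CASAVA, HISAT2 and HTSeq 0.6.0 were used with the build GRCm38 (mm10); the annotation release and strand setting are not given in the sources used here, so reads of overlapping genes on opposite strands may not be separated. Of the identifiers in the table, 54495 matched GENCODE release M21, which gave positions, exon lengths and shared stretches.

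Counts were filtered with filterByExpr, scaled by TMM and tested with the robust quasi-likelihood method of edgeR 4.0.16 (R 4.3.3). All 10 libraries entered 1 fit of the 3 groups with 7 residual degrees of freedom, and the threshold for a call was 0.05 on the two-sided p adjusted over all genes by Benjamini-Hochberg. The scripts were tested on simulated data. Log2 CPM used a prior count of 2, and ratios added 0.5 to each count. DESeq2 1.42.0, limma 3.58.1 voom and the other alternatives are in the closing section. Counting intervals cover counting error only. The genes, lists and tests were chosen with earlier results of these data known. Named from each list were up to 4 members with the smallest p in LPS against Vehicle, plus Ifng, Ifnb1, Irf1, Tbx21, Dpp4, Ackr1 and Ackr3, with the 5 genes most like each of the 4 genes and the neighbours within 200 kb. Ifna4 was named after its values were seen. A further gene of the lists is not reported here. No library was a copy of another in its group (chi-square per degree of freedom at least 29.98). After removal of group means, correlations between libraries that share a number ran from −0.344 to 0.405. They were not set against libraries of unlike number, so they cannot decide whether the numbers pair libraries. The replicate numbers were treated as names.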

Additional observations from a re-analysis of the deposited data

Results flagged for a closer look

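Of 49 values checked in the 4 LPS+TSLP libraries, 4 had 1 library farther from the rest than Dixon's critical value of 0.829 (its gap over the range of the group). Chance gives such a flag in a share of 0.05 of values. Dpp4 was lowest in LPS+TSLP replicate 1, at 41.0 CPM, where the other libraries of the group had 64.1 to 66.8 CPM. The log2 ratio of Cxcl9 to Cxcl10 was lowest in the same library, at −1.44. The summed level of endothelial markers was also lowest there, at 3273 CPM. The summed level of B cell markers was highest in LPS+TSLP replicate 3, at 227 CPM. None of the values of Cxcl9, Cxcl10, Cxcl11 or Cxcr3 met this criterion, since the ligands had 2 high and 2 low libraries in the group.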

How the results depend on the processing

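The alternatives were other scalings (DESeq2 size factors, upper quartile, library size alone), no filter or a filter of 1 CPM in 3 libraries, the DESeq2 Wald test, limma-voom, a fit of only the 2 groups compared, removal of GC or length trends, removal of mitochondrial, haemoglobin and immunoglobulin genes, the replicate number as a block, and leaving out libraries. In LPS against Vehicle, Cxcl9, Cxcl10 and Cxcl11 kept their direction in each of these, and Cxcl9 kept its call in 17 of 23. For LPS against Vehicle, Cxcl9 lost its call with no filter (3.14) and with LPS replicate 1 and LPS+TSLP replicate 1 both left out (3.18). Cxcl10 gained one by DESeq2 (2.84) and limma-voom (3.75), and Cxcl11 with only the 2 groups (3.21). Cxcr3 turned sign with the GC trend removed (0.17) and with that pair left out (0.12). Tbx21 turned with the GC trend removed (0.11). For LPS+TSLP against LPS, Cxcl11 turned sign with upper quartile factors (0.057), library size alone (0.0054) and the GC trend removed (0.064). For LPS+TSLP against Vehicle, Cxcl9 was called by DESeq2 (2.40) and Cxcr3 turned with the GC trend removed (0.019). The number of the 4 genes called in LPS against Vehicle was 1, and 0 with no filter or with that pair left out, and 2 by DESeq2, limma-voom or only the 2 groups. In LPS+TSLP against Vehicle it was 0, and 1 by DESeq2. The cause was not tested.

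With the replicate block, Cxcl11 was at 0.14 and Cxcr3 at 0.070 in LPS+TSLP against LPS, and Cxcr3 at 0.0057 in LPS+TSLP against Vehicle, each with its sign turned. The log2 fold changes of Cxcl9 with the block were 3.48, −0.68 and 2.80 in the 3 comparisons, and no call of the 4 genes changed. Whether the numbers pair the libraries is not stated in the sources used here.

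Leaving out 1 library at a time gave these ranges. In LPS against Vehicle they were 2.65 to 4.08 for Cxcl9, 2.61 to 4.06 for Cxcl11, −0.30 to 0.26 for Cxcr3, −0.37 to 0.27 for Tbx21, and 0 to 2 for the number called. In LPS+TSLP against LPS they were −1.44 to −0.41 for Cxcl9, −1.14 to −0.26 for Cxcl10, −0.54 to 0.39 for Cxcl11 and −0.48 to 0.13 for Cxcr3. In LPS+TSLP against Vehicle they were 1.70 to 3.33 for Cxcl9, 2.60 to 4.05 for Cxcl11, −0.53 to 0.15 for Cxcr3, and 0 to 2 for the number called. Differences of the log2 ratio of Cxcl9 to Cxcl10 ran from −0.49 to 0.48 (LPS against Vehicle), −0.55 to 0.41 (LPS+TSLP against Vehicle) and −0.22 to 0.083 (LPS+TSLP against LPS). Those of Cxcl11 to Cxcl10 ran in the same order from 0.36 to 1.23, 0.59 to 1.46 and 0.063 to 0.55. Those of Cxcl9 to Cxcl11 ran from −1.57 to 0.12 (LPS against Vehicle), −1.87 to −0.18 (LPS+TSLP against Vehicle) and −0.66 to 0.0013 (LPS+TSLP against LPS), and those of Cxcr3 to T cell markers from −0.72 to −0.0068 (LPS against Vehicle) and −0.11 to 0.60 (LPS+TSLP against LPS). Over all genes, 4273 were called in LPS against Vehicle, and 1661, 1836 and 2522 without Vehicle replicate 1, Vehicle replicate 2 and LPS replicate 1. In LPS+TSLP against Vehicle 2428 were called, 3925 by DESeq2, 1438 with the GC trend removed, 3842 with LPS replicate 1 and LPS+TSLP replicate 1 both left out, and 516, 521, 1038 and 1014 without Vehicle replicates 1 and 2 and LPS+TSLP replicates 2 and 3. Depth limits Cxcl11 and Cxcr3, with at most 382 and 180 counts in a library.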
